A study of Homo sapiens with 72 samples.

Results

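The baseline state of the human osteosarcoma line U2OS was described from population RNA-seq of wells that received DMSO, the solvent of the compounds, for 12 h. All wells labelled DMSO at 0 nM were taken, except replicate 10, whose library held 458921 expected counts, which left 17 wells of the 72 in the series. The other 54 wells received 1 of 6 compounds (pyrazolanthrone, nilotinib, miglitol, triptolide, homoharringtonine or MK-2206) at 100, 1000 or 10000 nM, and only the 9 miglitol wells are used here, for 1 repeat of a description. Cells were grown in plastic multiwell plates in DMEM with fetal bovine serum, so the values are those of 1 cultured line, with no normal bone cell beside it. No genetic change was made to the cells. The labels do not say whether the DMSO wells came from separate cultures or dates, so the spread given below is that between wells and may be technical.

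U2OS grew from a bone tumor, and cells of this origin are usually read against the path of an osteoblast. In that path a mesenchymal progenitor turns on RUNX2 and then SP7, lays down type I collagen and SPARC, raises the alkaline phosphatase ALPL and at last makes the mineral-binding proteins of bone. A tumor cell also has to escape 2 brakes on division, the p53 and RB pathways, and has to keep its chromosome ends. Ends are kept either by telomerase, whose catalytic protein is TERT, or by copying from other telomeres, the ALT pathway, which often goes with loss of the chromatin protein ATRX. U2OS is widely used as an ALT line.

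The 17 libraries held 18.3 M to 56.4 M expected counts (median 36.9 M). Levels are given as TPM, the abundance unit of RSEM, a value per length that sums to a fixed total in each library, so that genes can be ranked within it. A gene is called expressed at a mean TPM of at least 1, near silent where TPM was below 0.1 in every well, and low in between. Of 60279 genes listed, 14853 were expressed, 15311 low and 30115 near silent. Of 19550 protein-coding genes, 63.2% were expressed, 20.7% low and 16.1% near silent. A TPM of at least 1 was reached by 14460 to 15153 genes per well, and by 13038 genes in every well. As a check for a duplicated library, counts were compared over the 136 pairs of wells, and the smallest chi-square per degree of freedom was 3.63. In RNA from a whole well, a low level in all cells cannot be told apart from a higher level in few cells.

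The most abundant transcript in the DMSO wells was GAPDH, the glycolytic enzyme that oxidizes glyceraldehyde phosphate. Its TPM was 10495 in the lowest well, 12242 at the median and 12818 in the highest, with a mean of 11993 ± 679 (SD, n = 17), or 1.20% of all TPM. The next genes were RN7SL2, an RNA of the signal recognition particle (mean TPM 7877 ± 1588), the elongation factor EEF1A1 (7446 ± 1687), the ribosomal proteins RPS29 (7176 ± 1607) and RPS2 (7105 ± 957), and the cytoskeletal actin ACTB (6407 ± 857). Places 7 to 15 were held by RPS27, RPL4, RN7SL1, the prolyl isomerase PPIA, RPS19, RPL8, RPLP1, the actin-binding peptide TMSB10 and RPL10, with mean TPM from 5724 down to 4915. Neighbors in this order overlapped between wells. GAPDH stood nearly apart, since its lowest well, replicate 4 at 10495 TPM, was below only the highest well of RN7SL2, replicate 8 at 10558.

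**Figure D1:**
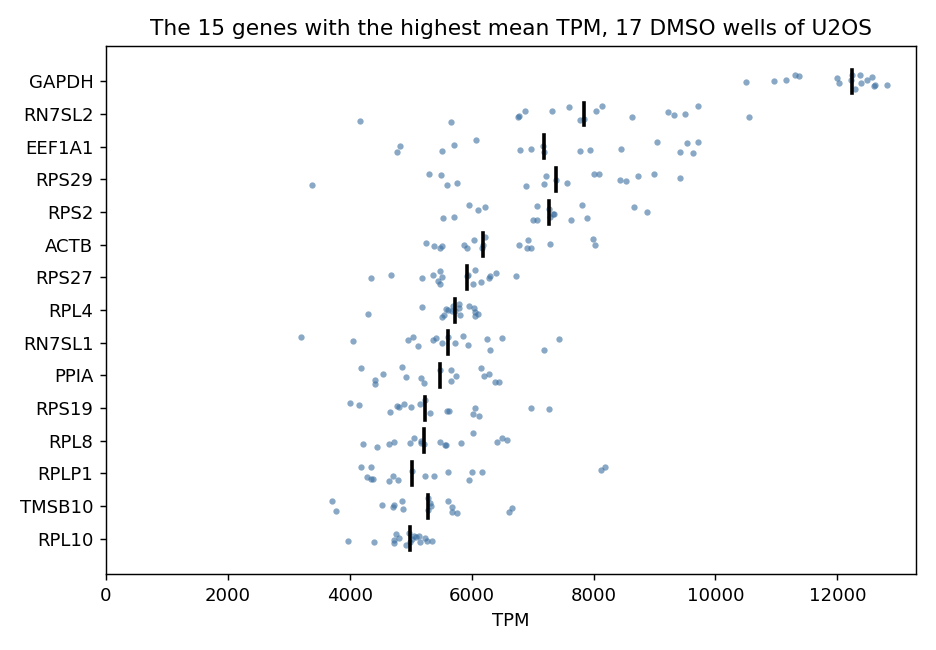
TPM (horizontal axis) of the 15 genes with the highest mean TPM in the 17 DMSO wells; each point is a well and each black bar a median. GAPDH lies at 10495 to 12818 TPM, and the wells of RN7SL2, EEF1A1 and RPS29 spread more widely than those of RPL4 and RPL10.

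The transcriptome was weighted towards few genes. The 10 highest genes held 7.04% ± 0.36 of TPM (SD, n = 17), the 100 highest 31.6% ± 1.4, the 1000 highest 64.7% ± 1.3 and the 5000 highest 90.2% ± 0.7. Of the 100 highest genes, 52 encode ribosomal proteins. The 87 genes of that kind held 17.2% of TPM in the lowest well, replicate 4, and 21.1% in the highest, replicate 11. The 17 glycolytic enzymes counted held 2.79% ± 0.14 (SD, n = 17), and among them ENO1, enolase, had a median TPM of 3858. Transcripts encoded by mitochondrial DNA held 0.318% to 1.14%. Metallothionein MT2A, which binds zinc and copper, had 2898, 4246 and 5490 TPM in its lowest, median and highest well, whereas MT1A was listed at 0 in every well. Ribosomal proteins and GAPDH have many processed pseudogenes, and RSEM divides reads that fit several copies, so single values of these families are less sure than their sums. Libraries were made with poly(A) selection, so the 7SL RNAs and 5.8S ribosomal RNA, which lack a tail, are no measure of those RNAs in the cell. The 4 identical 5.8S rows had 785 TPM each in replicate 7, 1183 at the median and 10139 in replicate 4.

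Of the 5 bone markers, 4 were expressed in U2OS, 2 of them at high levels, and 1 was near silent. SPARC, the collagen-binding protein osteonectin, had 1401 TPM in its lowest well, 2130 at the median and 2984 in the highest, and ranked 68 of all genes. COL1A1, the alpha-1 chain of type I collagen, had 338, 452 and 620 TPM in its lowest, median and highest wells. RUNX2, the factor that starts the osteoblast path, had 3.07, 3.74 and 4.67 TPM. ALPL, the alkaline phosphatase that frees phosphate for mineral, had 2.55, 3.71 and 5.08 TPM. These 4 markers were above 1 TPM in all 17 wells. SP7, or osterix, the factor that acts after RUNX2, was near silent: it was at 0 in 10 of 17 wells, its highest value was 0.05 TPM, and all wells together held 12 expected counts. Its highest count in a well was 4, in replicate 4, and 3 counts correspond to 0.0272 to 0.136 TPM over the wells.

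The 2 chains of type I collagen were far apart. COL1A2, the alpha-2 chain, had 0.01, 0.08 and 0.21 TPM in its lowest, median and highest wells, and 99 expected counts over all wells, against 1267310 for COL1A1. The wells of the 2 genes did not overlap. The fibrillar collagen COL3A1 (8.18 TPM at the median), and COL5A1 (31.7) and COL5A2 (17.2), were expressed, and so were the helpers of collagen folding and crosslinking SERPINH1 (214), FKBP10 (191), P4HA1 (18.8), PLOD2 (38.0) and LOX (13.6). Of the 17 osteoblast matrix and enzyme genes listed, 9 were expressed (beside 63.2% of all protein-coding genes), 3 low and 5 near silent. The near silent ones were IBSP, DMP1, MEPE, SOST and OMD, which are genes of mineralizing osteoblasts or osteocytes. BGLAP, osteocalcin, was low, with 0.04, 0.43 and 1.6 TPM. SPP1, osteopontin, another mineral-associated gene, was expressed, with 8.13, 12.4 and 14.6 TPM.

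Of 12 osteoblast transcription factors, 7 were expressed, a share near that of all protein-coding genes, with a median over the list of 2.22 TPM. ATF4, which is also a general stress factor, was highest at 788 TPM in the median well. The homeobox factors MSX1 (10.6) and MSX2 (7.13) were expressed at higher medians than RUNX2. DLX5 was low at 0.09 TPM, and DLX6 and TWIST1 had no count in any well. Among 15 signalling genes, 12 were expressed, beside 63.2% of all protein-coding genes. They included the Wnt coreceptor LRP6 (63.0), the receptor FGFR1 (64.5), the ligand BMP4 (55.7), the vitamin D receptor VDR (12.4) and IGF1R (31.3). The ligand of osteoclast formation TNFSF11 was near silent, its decoy receptor TNFRSF11B was expressed at 4.11 TPM, and the hormone receptor PTH1R was low at 0.10 TPM.

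**Figure D2:**
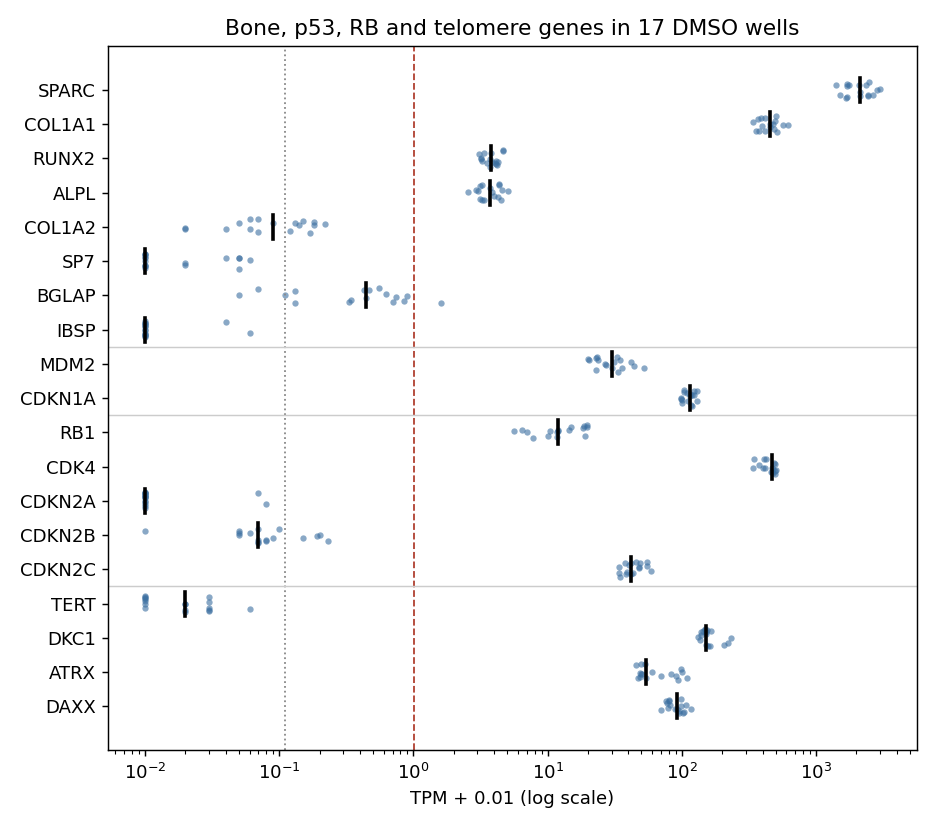
TPM plus 0.01 (log scale) of 19 bone, p53, RB and telomere genes in the 17 DMSO wells, with a point per well and a black bar at the median; the dashed line marks 1 TPM and the dotted line 0.1 TPM. SPARC, COL1A1, RUNX2 and ALPL lie wholly right of the dashed line, and SP7, IBSP, CDKN2A and TERT wholly left of the dotted line.

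Mesenchymal genes were broadly expressed. Of 29 listed, 24 were expressed, 4 low and 1 near silent, beside a background of 63.2% of all protein-coding genes. The intermediate filament VIM had 1707, 1873 and 2039 TPM in its lowest, median and highest wells. Fibronectin FN1 (374 TPM at the median), the hyaluronan receptor CD44 (447), THY1 (157), the cadherin CDH2 (75.8), COL6A1 (175) and COL6A2 (216) followed. The factors of epithelial-mesenchymal transition were not uniform. ZEB1 (17.6), SNAI1 (13.6), SNAI2 (4.04) and TWIST2 (6.53) were expressed, whereas ZEB2 had a highest well of 0.11 TPM and TWIST1 had no count. Of the surface proteins used to define mesenchymal stromal cells, THY1 and ENG (17.2) were expressed, and NT5E, or CD73, did not exceed 0.12 TPM in any well. Decorin DCN and periostin POSTN, matrix proteins of connective tissue, were low, with medians of 0.07 and 0.04 TPM.

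The p53 pathway genes were present almost throughout. MDM2, the ubiquitin ligase that removes p53 and is itself a p53 target, had 20.1, 29.9 and 52.1 TPM in its lowest, median and highest wells, and its lowest and highest wells were replicates 8 and 16. MDM4, its partner, had 2.35, 6.25 and 12.6 TPM. The phosphatase PPM1D, which switches p53 signalling off, had 26.3, 33.1 and 57.4 TPM. The deubiquitinase USP7 (88.2 at the median), the kinases ATM (9.80), ATR (7.22), CHEK1 (39.8) and CHEK2 (24.3), TP53BP1 (28.0) and the family member TP73 (6.18) were expressed. TP63, the family member of stratified epithelium, was near silent and did not exceed 0.08 TPM. So 11 of 12 core genes were expressed, beside 63.2% of all protein-coding genes.

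Of 26 p53 target genes, 25 were expressed (beside 63.2% of all protein-coding genes) and 1, SPATA18, was low. The cell cycle inhibitor CDKN1A, or p21, had 99.0, 114 and 130 TPM. The cell death gene BAX was the highest of the list at 201, 237 and 267 TPM. CCNG1 (120 at the median), FDXR (84.1), AEN (80.6), DDB2 (58.3) and TP53I3 (51.9) followed. GDF15, a secreted protein that many p53-active cells make at high levels, had 0.51, 1.04 and 1.84 TPM, and TP53INP1 had 0.58, 0.93 and 2.48. All these genes have p53-independent input too, and no stimulated sample is part of this description.

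Transcripts of the RB pocket proteins and of the G1 kinases were expressed, and the inhibitor gene CDKN2A was near silent. RB1, the pocket protein that holds back E2F factors, had 5.58, 12.0 and 19.6 TPM in its lowest, median and highest wells. The related RBL1 (7.27) and RBL2 (10.48) were expressed at similar medians. For CDKN2A, which encodes the CDK4 inhibitor p16 and the MDM2 inhibitor p14ARF, 15 of 17 wells had no count, the other two had 1 each, in replicates 1 and 17, and this made 2 expected counts over all wells. At these depths 3 counts in 1 well correspond to 0.121 to 0.371 TPM. Its neighbor CDKN2B, or p15, was low, with 0, 0.06 and 0.22 TPM, and the antisense gene CDKN2B-AS1 had no count in any well. MTAP, the metabolic gene on the other side of CDKN2A on chromosome 9, had 31.0, 37.0 and 51.1 TPM. DMRTA1, the next gene beyond CDKN2B, had 0.72 TPM in its lowest well and 0.86 at the median, and reached 1 TPM in 6 wells. MTAP, CDKN2B-AS1 and DMRTA1 are on no list and were added after the value of CDKN2A was known.

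The other CDK inhibitors were expressed: CDKN1A as above, CDKN1B, or p27, at 18.02 TPM in the median well, CDKN1C at 2.74, CDKN2C, or p18, at 41.8 and CDKN2D, or p19, at 14.3. The counts that follow stand beside 63.2% of all protein-coding genes expressed. Of the G1 kinases and cyclins, 8 of 8 were expressed. CDK4 was highest with 341, 470 and 504 TPM, and CCND1, cyclin D1, had 79.9, 126 and 172 TPM. CDK2 (128), CCNE1 (67.5), CCND3 (55.1), CCND2 (49.3), CDK6 (32.6) and CCNE2 (12.0) followed. All 10 E2F and DP factors were expressed, from TFDP1 at 204 TPM to E2F5 at 1.93. All 20 E2F and proliferation targets were expressed as well, with a median over the list of 149 TPM, led by TK1 (556), CCNB1 (452) and TYMS (388). All 18 genes of G2 and mitosis were expressed, led by CDC20 at 654 TPM.

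Of 9 telomerase genes, 7 were expressed (beside 63.2% of all protein-coding genes) and TERT and TERC were near silent. TERT, the catalytic subunit gene, was at 0 in 7 of 17 wells, with a median of 0.01 TPM, a highest value of 0.05 and 16 expected counts over all wells. The highest count in a well was 3, in replicates 9 and 11, and 3 counts correspond to 0.0217 to 0.111 TPM over the wells. The template RNA TERC had no count in any well, but it has no poly(A) tail and is not captured by this library type. The RNA-binding proteins DKC1 (152 TPM at the median), NHP2 (296), NOP10 (188) and GAR1 (44.7), the assembly and trafficking factors NAF1 (9.84) and WRAP53 (46.8), and the RNA trimming enzyme PARN (21.8) were expressed. Most of these also serve other small nucleolar and Cajal body RNAs. All 9 shelterin and CST genes, which cover and fill in chromosome ends, were expressed. Their medians were 45.4 for ACD, 38.2 for TEN1, 38.1 for TINF2, 30.9 for TERF2, 25.8 for STN1, 23.6 for TERF1, 20.5 for TERF2IP, 7.89 for POT1 and 6.82 TPM for CTC1.

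All 28 genes listed for the ALT pathway were expressed (beside 63.2% of all protein-coding genes), with a median over the list of 17.8 TPM. The list includes genes that loss of function, not expression, ties to ALT. ATRX had 45.7, 53.6 and 110 TPM in its lowest, median and highest wells, and its partner DAXX had 69.5, 91.8 and 118. The histone H3.3 genes H3-3A (314 at the median) and H3-3B (1850), which ATRX and DAXX deposit as protein, were abundant. The reads assigned to ATRX lay on short isoforms in RSEM's estimate. The isoform-weighted length that RSEM gave for ATRX was 1629 to 3236 bases (median 2210) over the wells, or 19.8% of its longest annotated transcript of 11165 bases. Among 3048 expressed protein-coding genes with a longest transcript of at least 5000 bases, 7.61% had a lower share, and the median share was 50.4%. TPM is divided by that length, so the TPM of ATRX would be lower if its reads were put on the full transcript, and no protein was measured. The values were not read against an ATRX-intact cell here.

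The remaining ALT genes ranged widely, from 660 TPM for CHD4 to 2.15 for SLX4IP at the median. The nuclear body genes PML (25.9) and SP100 (27.7), the nuclear receptors NR2C2 (35.5) and NR2F2 (20.8) that bind variant telomere repeats, and the chromatin proteins CHD4 (660) and ZNF827 (9.56) were expressed. The recombination and replication genes had medians of 174 for FEN1, 35.6 for TOP3A, 18.7 for RAD51AP1, 17.1 for MRE11, 16.7 for POLD3, 16.03 for BLM, 15.8 for SMARCAL1, 15.52 for NBN, 14.5 for SLX4, 12.8 for RAD52, 11.4 for RMI2, 10.4 for FANCM, 8.65 for RAD50, 5.33 for WRN, 4.80 for RMI1, 4.22 for RTEL1 and 2.15 TPM for SLX4IP.

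The near silent genes CDKN2A and TERT have CpG-rich promoters. Most human promoters that are active in many cell types are rich in the dinucleotide CpG. CpG (the letters CG, which read the same on both strands) was counted in the 300 bases from 250 before to 50 after the gene start that RefSeq gives on GRCh38.p14. A promoter was found for 15213 of 19550 protein-coding genes. The median was 27 CpG for expressed genes (10001 matched), 10 for low genes (2877) and 4 for near silent genes (2335). At least 20 CpG were found in 73.1% of expressed, 33.1% of low and 17.4% of near silent genes, and in 57.0% of all. The 4 promoters below are shown because they set the pair of near silent pathway genes beside an expressed CDK inhibitor and a near silent bone gene, with each CpG in capitals. CDKN2A (chr9:21995275-21995574, minus strand) holds 28 CpG and TERT (chr5:1295019-1295318, minus strand) holds 36. CDKN2D, expressed, (chr19:10568930-10569229, minus strand) holds 36, and IBSP, near silent, (chr4:87799304-87799603, plus strand) holds 4. The CDKN2A window is that of its most upstream start, and its other starts were not counted. It is therefore not taken as the start of the p16 transcript.
CDKN2A: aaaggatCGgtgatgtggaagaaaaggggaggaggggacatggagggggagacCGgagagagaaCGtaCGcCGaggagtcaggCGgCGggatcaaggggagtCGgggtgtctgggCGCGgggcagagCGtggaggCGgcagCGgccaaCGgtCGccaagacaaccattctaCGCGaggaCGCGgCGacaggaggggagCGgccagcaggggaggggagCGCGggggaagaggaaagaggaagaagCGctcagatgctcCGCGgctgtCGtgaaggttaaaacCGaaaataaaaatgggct
TERT: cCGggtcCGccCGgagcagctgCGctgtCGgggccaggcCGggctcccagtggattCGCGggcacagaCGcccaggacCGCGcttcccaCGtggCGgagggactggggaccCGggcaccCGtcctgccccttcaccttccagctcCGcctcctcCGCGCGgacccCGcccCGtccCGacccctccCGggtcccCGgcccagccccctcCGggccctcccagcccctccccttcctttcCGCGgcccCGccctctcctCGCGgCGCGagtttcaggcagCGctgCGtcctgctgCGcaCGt
CDKN2D: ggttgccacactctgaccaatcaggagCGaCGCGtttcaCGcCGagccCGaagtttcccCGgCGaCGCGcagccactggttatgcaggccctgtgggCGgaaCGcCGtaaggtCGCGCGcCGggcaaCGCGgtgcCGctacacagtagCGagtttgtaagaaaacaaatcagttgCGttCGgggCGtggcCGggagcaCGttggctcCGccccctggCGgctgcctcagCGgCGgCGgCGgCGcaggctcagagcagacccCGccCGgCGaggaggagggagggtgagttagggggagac
IBSP: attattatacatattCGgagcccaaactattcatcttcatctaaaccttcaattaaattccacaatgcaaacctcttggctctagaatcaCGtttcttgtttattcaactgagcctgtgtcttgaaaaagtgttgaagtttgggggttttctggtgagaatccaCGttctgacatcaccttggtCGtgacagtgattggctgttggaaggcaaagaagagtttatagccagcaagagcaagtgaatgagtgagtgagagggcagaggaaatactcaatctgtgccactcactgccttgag

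At least as many CpG as in the CDKN2A window were found in 9.76% of the near silent genes, and at least as many as in the TERT window in 3.90%. Of the 50 near silent genes on all lists, 29 had a promoter entry, and 10 of them held at least 20 CpG. These were CDKN2A, TERT, DLX6, NEUROD1, BRDT, DAZL, ZFP42, CLDN3, COMP and LEP. Expressed bone genes were not all CpG-rich in the window counted: SPARC and ALPL held 11 each and RUNX2 2, while MDM2 held 39. Each gene was counted at 1 start only, so a low value does not cover other promoters of that gene. The expressed genes RB1 and USP7, for example, held 0 and 1. The plot of promoter CpG by class shows both groups.

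**Figure D3:**
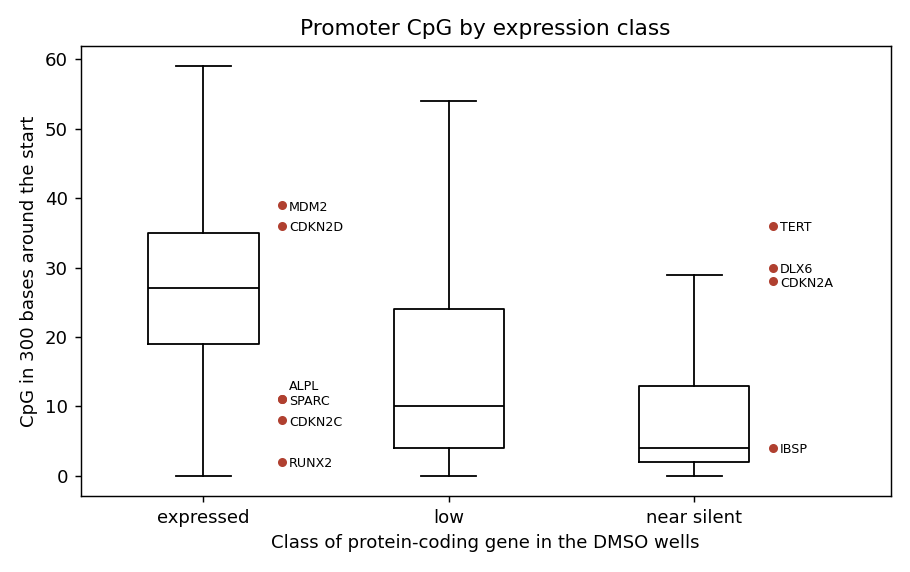
CpG in the 300 bases around the RefSeq start (vertical axis) of protein-coding genes that were expressed, low or near silent in the DMSO wells; boxes give quartiles and median, whiskers reach 1.5 times the box, and red points are named genes. The medians are 27, 10 and 4 CpG, and CDKN2A and TERT lie above the box of the near silent genes.

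Genes of other lineages were mostly not expressed. Over 10 lists (blood, neural, endothelial, muscle, liver and gut, cartilage, fat, pluripotency, germ line and epithelial) with 129 genes, 34 were near silent (26.4%, beside 16.1% of all protein-coding genes), 57 low and 38 expressed (29.5%, beside 63.2%). GATA1, HBB, HBG1 and PPBP of blood, NEUROD1 of neurons, EMCN of endothelium, MYF5 of muscle, FGB of liver, ADIPOQ of fat, DPPA4 and PRDM14 of pluripotent cells, and DAZL and SYCP1 of the germ line were listed at 0 in every well. Markers of other cells that a well could hold were then summed. Endothelial markers PECAM1, CDH5 and VWF summed to 0.32 to 1.15 TPM per well, muscle markers MYOD1, MYOG and DES to 0 to 0.87, and liver markers ALB and APOA1 to 0.10 to 0.66. Epithelial markers CDH1, EPCAM, KRT5 and KRT14 summed to 4.11 to 6.72 TPM, with EPCAM highest (mean 2.49). Neural markers RBFOX3, SYP and GFAP summed to 13.3 to 21.4 TPM, with SYP highest (mean 10.9).

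By list, the expressed members were 1 of 16 for blood (RUNX1, 37.0 TPM at the median), 1 of 10 for endothelium (ERG, 4.42) and 1 of 9 for pluripotency (DPPA2, 1.45). They were 3 of 16 for muscle (RYR1 12.8, TNNT2 6.98 and PAX7 3.22) and 3 of 12 for liver and gut (SERPINA1 134, AFP 3.81 and CDX2 2.85). For fat they were 3 of 8 (PPARG 10.8, LPL 5.27 and CEBPA 1.38). Cartilage, a sister lineage of bone, had 6 of 10 expressed, a share near that of all protein-coding genes. Among them were SOX9 (18.8), aggrecan ACAN (12.9), COL11A1 (8.94) and MATN3 (8.80). COL2A1, the collagen that defines cartilage, was low at 0.21 and COMP near silent. Neural genes had 7 of 16 expressed, led by the tubulin TUBB3 (227), and included OLIG2 (4.97), SNAP25 (3.19), MAP2 (1.92) and the vesicular transporter SLC17A7 (6.54). Epithelial genes had 7 of 18 expressed, led by the keratins KRT18 (354) and KRT8 (252), while CDH1 was low at 0.40 and GRHL2 and OVOL1 did not exceed 0.13 TPM. KRT8 and KRT18 have many processed pseudogenes.

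The germ line list held both abundant and near silent genes. The cancer-testis genes PRAME (257, 291 and 329 TPM in the lowest, median and highest wells), MAGEA4 (207, 246 and 259), MAGEA1 (133, 155 and 162), MAGEA6 (114, 127 and 139), MAGEA3 (25.7, 31.6 and 46.9) and MAGEC1 (23.0, 32.5 and 40.6) were expressed. These 6 are antigens of the testis that many tumors turn on. The genes of germ cell identity and meiosis DDX4, DAZL, SYCP1 and BRDT were near silent, as was the antigen CTAG1B. MAGEA3 and MAGEA6 are nearly identical in sequence, so the division of reads between them is uncertain. SERPINA1, the liver-secreted protease inhibitor, was as steady as these genes, at 113, 134 and 143 TPM.

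State genes that respond to culture gave further levels, and their counts stand beside 63.2% of all protein-coding genes expressed. Of 16 immediate early genes, 12 were expressed, with FOSL1 (58.9 TPM at the median), JUN (52.2) and EGR1 (30.9) above FOS (10.3) and FOSB (0.59). All 13 genes of the YAP and contact list were expressed, led by AXL (367). That list includes factors of the pathway itself, such as YAP1, WWTR1 and TEAD1, beside target genes. Of 14 sterol synthesis genes, 13 were expressed, led by FDPS (209). All 15 genes of the ATF4 and ER stress list and all 10 heat shock genes were expressed, led by ATF4 and by HSPA8 (2221). Of 15 interferon response genes, 9 were expressed, a share near that of all protein-coding genes. Of 15 hypoxia and glycolysis genes, 14 were expressed, and the one exception was CA9, a marker of low oxygen, at 0.42.

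Variation between the 17 wells was ranked by the SD of log2(TPM + 1) among the 10857 genes with a mean TPM of at least 5. The median SD was 0.21, and 746 genes (6.87%) reached an SD of 0.5. None of the 20 highest was a protein-coding gene, and all 20 had a mean of under 100 expected counts per well. They were the small RNAs and pseudogenes RPL39P3, RN7SL3, RNA5SP392, RNA5SP530, SNORA18, SNORA84, SNORA10, SNORA17B and RNVU1-7 and 11 genes known only by identifier. In RSEM such short genes get a high TPM from a few reads. RNA5SP530, for example, was between 0 and 93.1 TPM with 16 expected counts over all wells. The ranking was therefore repeated over 9886 nuclear protein-coding genes that also had a mean of at least 100 expected counts, a choice made after these values were seen. At the mean count over wells, counting alone gives such genes an SD of at most 0.14, and in a well with fewer counts its error is larger. Of these, 503 (5.09%) had an SD of at least 0.5 and 18 of at least 1, and 336 had an SD of at least 0.5 without replicate 16.

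The 503 variable coding genes were mainly AT-rich. Their transcripts had a median GC content of 40.4%, against 50.0% over all coding genes ranked. The top of the ranking lay above 40.4% GC. It was held by ENSG00000267059 (SD 1.82, 64.2% GC), PLLP (1.76, 55.6%), ENSG00000255639 (1.47, 45.9%), NME1-NME2 (1.45, 53.2%) and ENSG00000256591 (1.45, 51.1%). All of these but PLLP are readthrough genes or known only by identifier, and their reads are hard to divide. Genes with under 40% GC had an SD of at least 0.5 in 224 of 724 cases (30.9%), genes of 40 to 45% in 201 of 2170 (9.26%), and genes of 50 to 55% in 12 of 1685 (0.712%). The wells were placed on one scale by their GC slope, the change of log2 TPM, relative to the mean of the wells, per 10 percentage points of transcript GC. It ran from -0.36 in replicate 16 to 0.26 in replicate 7. Of the 503 variable genes, 472 were negatively correlated with that slope over wells, with a median r of -0.91 (a description, since slope and genes share the libraries). RPL39, a ribosomal protein of AT-rich sequence, had 174 TPM in replicate 3, 540 at the median and 1828 in replicate 17. The mucin-like membrane protein TMEM123 had 36.4, 71.1 and 305 TPM, the chaperone PFDN4 7.38, 15.97 and 102, and the transcription cofactor SUB1 32.6, 90.3 and 347. The isoform-weighted length from RSEM, by which TPM is divided, was 401 to 404 bases for RPL39 over the wells. It was 1024 to 3579 for TMEM123, 615 to 1031 for PFDN4 and 811 to 1537 for SUB1. Its part in their spread was not tested.

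**Figure D4:**
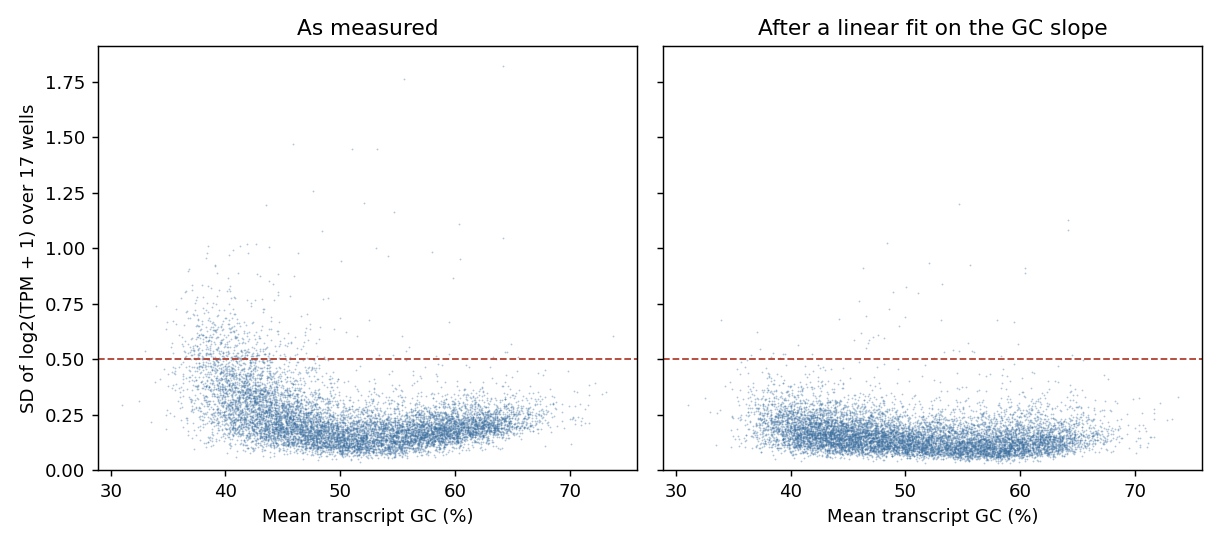
SD of log2(TPM + 1) over the 17 DMSO wells (vertical axis) against mean transcript GC (%) for nuclear protein-coding genes with a mean of at least 100 expected counts, before (left) and after (right) a linear fit on the GC slope; each point is a gene and the dashed line marks 0.5. At the left 503 genes lie on or above the line, many of them under 45% GC, and at the right 53.

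Coding sequences show the contrast on the smallest scale. Among the 300 genes with the highest mean TPM, 25 ranked coding genes have a longest coding sequence of at most 300 bases, and the 2 most negative and 2 most positive correlations with the GC slope are shown, with G and C in capitals (GENCODE release 44 transcripts). RPL39 (41.7% GC, r = -0.93) and TMSB4X (43.7%, r = -0.88) are at 1 end. TMSB10 (51.1%, r = 0.86) and the ribosomal protein RPS28 (61.9%, r = 0.91) are at the other. TMSB4X and TMSB10 encode the sister actin-binding peptides thymosin beta 4 and thymosin beta 10, and their coding sequences of 135 bases are identical at 98 positions (72.6%).
RPL39: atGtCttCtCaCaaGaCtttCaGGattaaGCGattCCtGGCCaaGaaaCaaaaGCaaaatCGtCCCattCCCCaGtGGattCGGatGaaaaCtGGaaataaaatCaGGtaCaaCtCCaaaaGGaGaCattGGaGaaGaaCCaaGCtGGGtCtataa
TMSB4X: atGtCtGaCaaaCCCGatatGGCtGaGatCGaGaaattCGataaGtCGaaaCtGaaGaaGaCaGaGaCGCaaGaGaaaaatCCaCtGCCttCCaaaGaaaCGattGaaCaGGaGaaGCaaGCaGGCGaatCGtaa
TMSB10: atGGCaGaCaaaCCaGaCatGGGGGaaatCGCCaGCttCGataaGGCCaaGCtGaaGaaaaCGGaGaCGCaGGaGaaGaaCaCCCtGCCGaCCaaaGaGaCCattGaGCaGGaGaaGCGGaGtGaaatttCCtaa
RPS28: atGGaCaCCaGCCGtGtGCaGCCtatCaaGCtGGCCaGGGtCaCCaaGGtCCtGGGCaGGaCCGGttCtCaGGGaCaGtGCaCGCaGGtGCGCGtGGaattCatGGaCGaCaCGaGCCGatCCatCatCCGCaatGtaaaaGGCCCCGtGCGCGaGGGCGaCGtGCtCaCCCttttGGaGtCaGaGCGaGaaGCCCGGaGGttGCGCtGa

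TMSB4X had 318, 536 and 910 TPM in its lowest, median and highest wells, and TMSB10 had 3702, 5281 and 6659. Over the 17 wells their log2 levels moved in opposite directions (r = -0.81, a description). They were picked for opposite correlations with the GC slope, so a negative r between them follows from that choice. RPL39 and TMSB4X have processed pseudogenes that share reads with them.

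The first principal component (PC1) of log2(TPM + 1) over the 10857 genes held 48.1% of the variance between wells, and the second 10.49%. PC1 went with the GC slope (Pearson's r = 0.98, Spearman's rho = 0.98) and with the share of mitochondrial transcripts (r = -0.85, rho = -0.85). Both are made from the same TPM values as PC1, so these are descriptions with no test. Fragment length and depth are not computed from TPM. Fragment length does enter the effective length by which TPM is divided, so it is not wholly separate from PC1. PC1 went with inferred fragment length (r = -0.76, rho = -0.83, adjusted permutation p = 0.00156 and 0.00036, n = 17 wells) and with depth (r = -0.71, rho = -0.70, adjusted permutation p = 0.0027 and 0.00388). Each p is two-sided, from 100000 resamples, and was adjusted over 4 relations. Without the 2 wells farthest from the median of each measure, r was 0.97 for the GC slope, -0.81 for the mitochondrial share, -0.88 for fragment length and -0.67 for depth. The 4 measures go together, since the GC slope itself correlated with the mitochondrial share (r = -0.84), fragment length (-0.65) and depth (-0.64), and which of them the wells differ in first was not tested. PC2 passed the test with neither fragment length nor depth, and its highest score was that of replicate 14, the shallowest library. The labels give no plate, date or lane, so no values within batches could be given.

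**Figure D5:**
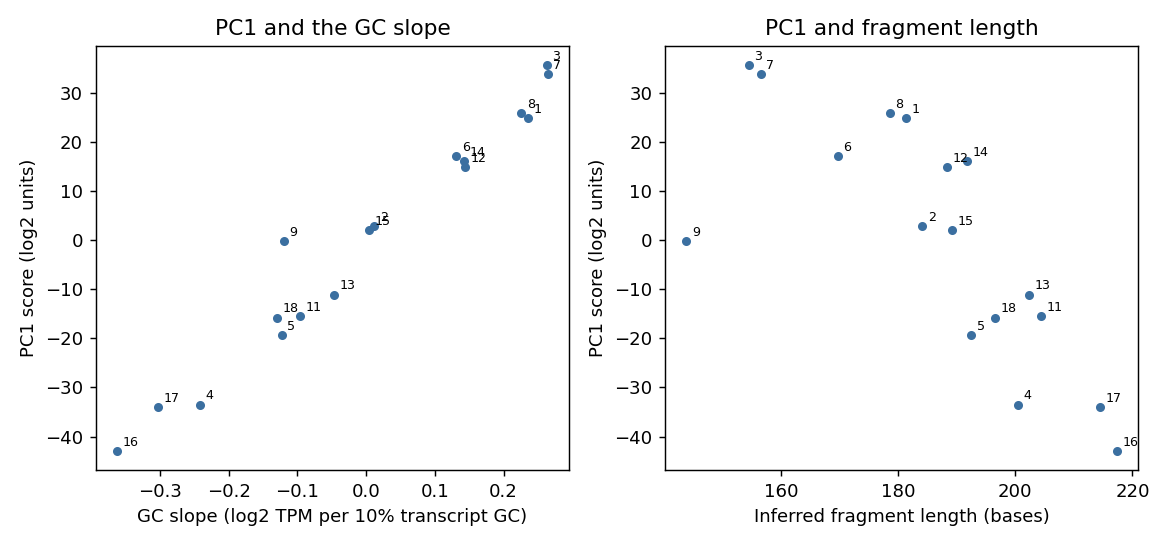
PC1 score (log2 units, vertical axis) of the 17 DMSO wells against the GC slope of each library (left; log2 TPM per 10 percentage points of transcript GC) and its inferred fragment length (right; bases); numbers are replicates. Replicates 16, 17 and 4 lie at the lower end of PC1 and replicates 3 and 7 at the upper end, and replicate 9 has the shortest fragments, 144 bases, with a PC1 score of -0.29.

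The genes of the pathways above shared this variation. Of 281 list genes with a mean TPM of at least 5, 18 (6.41%) reached an SD of 0.5. All 281 were among the coding genes ranked, of which 5.09% did. The 18 were the mitotic and proliferation genes TTK, CENPE, CENPF, MKI67, DLGAP5, CDK1 and TOP2A, the genome maintenance genes ATM, WRN, RAD51AP1 and POT1, and MDM4, RRM2B, RB1, BMPR1A, PLOD2, HMGCS1 and HSPH1. For 17 of the 18, the correlation with the GC slope was negative, and for 16 it was below -0.7. RB1, for example, had its lowest value, 5.58 TPM, in replicate 3 and its highest, 19.6, in replicate 16, with r = -0.90. MDM2 stayed under that SD (0.39) but had r = -0.96. SPARC (r = 0.87) and COL1A1 (0.72) went the other way. So the order of the wells by RB1 or MDM2 is close to their order by base composition. The isoform-weighted length from RSEM also ranged over wells, from 2290 to 4776 bases for RB1 and 2606 to 3699 for MDM2. Its part in their spread was not tested.

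After a linear fit on the GC slope, 53 coding genes (0.536%) kept an SD of at least 0.5, and all 53 had reached it before. Of them, 24 were readthrough genes, members of the NPIP family of near-identical copies or genes known only by identifier, for which reads are hard to divide. H4C15, SLX1B and BOLA2, which also have near-identical copies, were among the most variable. Replicate 14, the shallowest library, held the largest deviation for 17 of the 53. Without it 41 genes reached an SD of 0.5, 40 of them among the 53, and the SD of SLX1B after the fit went from 1.08 to 0.52. Of list genes 3 remained over all 17 wells, the proliferation marker MKI67, the mitotic kinesin CENPE and the mitotic kinase TTK. MKI67 had 33.5 TPM in replicate 5, 64.2 at the median and 115 in replicate 2, with a correlation with the GC slope of 0.02. CENPE had 3.19, 5.70 and 23.7 TPM and TTK 3.92, 6.76 and 34.1, both highest in replicate 16. After the fit both deviated most in replicate 14. Without that well the SD after the fit was 0.60 for MKI67 and 0.60 for CENPE, and 0.40 for TTK, which then no longer reached 0.5. Deviations from the fit of MKI67 and CENPE went together over the 17 wells (Pearson's r = 0.85, Spearman's rho = 0.86, adjusted permutation p = 9e-05 and 0.00024). So did those of MKI67 and CENPF (r = 0.84, rho = 0.84, adjusted permutation p = 9e-05 and 0.00027), TOP2A (0.72 and 0.73, adjusted permutation p = 0.00165 and 0.00234), DLGAP5 (0.71 and 0.72, adjusted permutation p = 0.00165 and 0.00234) and TTK (0.55 and 0.52, adjusted permutation p = 0.0255 and 0.0426). They did not pass the test with CDK1 (0.06 and -0.0025, adjusted permutation p = 0.804 and 0.996). Without the 2 wells farthest from the median of MKI67, the 6 values of r were 0.85, 0.82, 0.73, 0.75, 0.60 and 0.14, and without replicate 14 they were 0.84, 0.82, 0.69, 0.68, 0.47 and -0.02. These 6 relations were chosen after the variable genes were known, in the same wells. Their p-values therefore describe these wells and are no independent support.

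Off the lists, the mitotic genes ITGB3BP, ASPM and SGO2 kept an SD of 0.62, 0.52 and 0.50 after the fit. Without replicate 14 these were 0.56, 0.48 and 0.47. Some other genes that kept their variation have roles outside the cycle. The endothelial-type proteoglycan ESM1 had 5.74 TPM in replicate 14, 16.9 at the median and 46.8 in replicate 18. The BCL2 family survival gene BCL2A1 had 1.55 in replicate 1, 7.15 at the median and 22.4 in replicate 18. The hair keratin-associated gene KRTAP2-3 had 6.43 in replicate 8, 11.6 at the median and 24.7 in replicate 18. Replicate 18 had the highest TPM of all 3, but after the fit the largest upward deviation was in replicate 6 for ESM1, replicate 15 for KRTAP2-3 and replicate 18 for BCL2A1. The phosphatase PTP4A1 had 21.1, 88.0 and 287 TPM, highest in replicate 5, and its isoform-weighted length ran from 758 to 4931 bases over the wells.

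The 9 miglitol wells, which were not used for the ranking, gave a repeat. Miglitol inhibits intestinal alpha-glucosidases, and each of its wells was taken as a deviation from the mean of its dose. Of the 100 most variable coding genes in the DMSO wells, 59 were among the 100 most variable there. An SD of at least 0.5 was reached by 210 genes in the miglitol wells, of which 178 were among the 503 of the DMSO wells (84.8% of the former and 35.4% of the latter). The first component of the miglitol deviations held 70.5% of their variance and had an absolute r of 0.99 with their GC slope.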

How the data were processed

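The members and gene lists were chosen with earlier results of these data known. RNA was extracted with RNeasy columns, and the authors prepared TruSeq Stranded mRNA libraries with poly(A) selection for a HiSeq instrument. GRCh38, RSEM, HTSeq and DESeq2 are named in the submitters' processing notes, and the annotation release is not given in the sources used here. In the deposited RSEM tables, an expected count estimates the reads of a gene and is not normalized. The deposited TPM divides by effective length and gives every library the same sum. The deposited FPKM, relative to length and mapped fragments, served only as an alternative. Each file lists 60371 rows, of which 92 are ERCC spike-in rows; these held 0.0158% to 0.510% of expected counts and stayed out of ranks and totals, but not out of the TPM sum.

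Symbols, types and positions came from GENCODE release 44, which held 56104 of the identifiers, and promoters and older names from RefSeq tables of GRCh38.p14. Fragment length was inferred from the difference between length and effective length in RSEM. SD, principal components and permutation tests with 100000 resamples were computed in Python 3.11.15 with scipy 1.17.1 and numpy 2.4.6. Size factors for alternatives came from edgeR 4.0.16 (TMM) and DESeq2 1.42.0 in R 4.3.3, on rounded expected counts. The pseudocount was 1. The calculations were tested on simulated data. Counting limits of 3 counts cover counting error only.

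Named in the text were the 9 markers, the 15 highest genes, the highest member of each list and those whose class is described, the 20 most variable genes, list genes with an SD of at least 0.5, and the members of the p53 core, RB, CDK inhibitor, telomerase, shelterin and ALT lists. Some list members are counted but not reported here by name. Variable coding genes, chromosome 9 neighbors and genes with shown sequences fall outside this rule and were chosen after their values were seen. A mean TPM of 5 did not make counting error small for short genes, contrary to what the plan assumed, so a count minimum of 100 was added.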

Additional observations from a re-analysis of the deposited data

Results flagged for a closer look

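Spike-in rows, which no result above uses, held signal in all 17 DMSO wells. Of the 92 ERCC rows, 87 had counts in at least 1 well and 39 in every well. Their share of expected counts was 0.0158% in replicate 5, 0.0906% at the median and 0.510% in replicate 9, a range of 32.3 times. The share was lower in deeper wells (Pearson's r = -0.65, Spearman's rho = -0.74, adjusted permutation p = 0.00882 and 0.00218, n = 17 wells, 2 relations, r = -0.57 without the 2 farthest wells). Depth is nearly the denominator of the share, so a negative r can arise where spike-in counts are unrelated to depth. The p-values for depth are therefore no support for a relation. The share did not pass the test with the GC slope (r = 0.14, rho = 0.32, adjusted permutation p = 0.594 and 0.215, r = -0.05 without the 2 farthest wells). The study's methods name diluted ERCC mix for the plates of its other assay, DRUG-seq, and give no spike-in for the libraries used here.

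DMSO replicate 10, left out for its 458921 expected counts, held 81 genes with at least 10 counts and a TPM over 4 times that of the highest of the 17 wells, of 7759 genes with at least 10 counts in it. EGR1, an immediate early factor, had 312 TPM there from 317 counts, against 19.6 to 44.8 in the other wells. FOS had 152 TPM from 70 counts against 6.68 to 13.5, and FOSB 31.8 TPM from 19 counts against 0.32 to 1.29. These 3 were among 10 of the 16 immediate early genes with at least 10 counts in that well. In so shallow a library, a gene that is low in the other wells reaches 10 counts only where it is high. The 81 of 7759 and the 3 of 10 are therefore no measure of how common such genes are. The list was not uniform in that well. JUN (105 TPM against 38.3 to 69.3) and IER2 (163 against 42.3 to 60.8) lay above the other wells by less than 4 times. IER3 (51.9 from 19 counts) lay within 31.5 to 55.7, and DUSP1 (11.1 from 7 counts) below 13.9 to 20.1. With 1 such library there is no replicate check.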

How the results depend on the processing

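No paired analysis was possible because the description rests on 1 group, with no test between groups. By share of expected counts, not divided by length, the 100 highest genes held 19.4%. At a mean TPM of at least 0.5, expressed members were 4 for blood, 3 for endothelium and 2 for pluripotency, and with 18 wells 2 for endothelium; the other 95 of 99 values over the 33 lists stayed within 1.5 times. Near silent lineage genes were 61 at TPM below 0.5 and 54 at no more than 10 expected counts per well. Genes with an SD of at least 0.5 were 1217 with a filter at TPM 1, 1522 with none, 470 with TMM-scaled counts, 429 with DESeq2 size factors, 244 with the GC slope and 361 with fragment length as covariate, 1600 with 18 wells, 53 for the filtered coding genes with the GC slope, and 568 to 800 without each well in turn. For the coding genes the count was 330 with DESeq2 size factors, 53 with the GC slope, 154 with fragment length, and 336 to 560 without each well; after the GC slope it was 41 to 57. With 18 wells PC1 was replicate 10, whose score of 109 lay beyond the -12.7 to 3.72 of the others, and r of PC1 was 0.19 with the GC slope, -0.15 with fragment length and 0.13 with the mitochondrial share. PC2 then had r of -0.96 with the GC slope, 0.86 with the mitochondrial share, 0.74 with fragment length and 0.42 with depth. The mean TPM of 13 named genes moved by less than the SD between wells with 18 wells or without spike-in rows.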
